A study of Homo sapiens with 5 samples.

Results

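The APOBEC3 deaminases are a family of 7 human genes, APOBEC3A, APOBEC3B, APOBEC3C, APOBEC3D, APOBEC3F, APOBEC3G and APOBEC3H. They were taken from the deposited table of read counts by their gene symbols, 7 of 26485 rows, and each of the 7 symbols has its own row. The counts come from RNA-seq of RPE1 cells, an established wild-type line of human retinal pigment epithelial cells, after 18 h in DMSO (the solvent, 2 libraries), 0.2 μM doxorubicin (2 libraries) or 0.34 μM doxorubicin (1 library). Doxorubicin is a DNA intercalator and topoisomerase 2 poison used in chemotherapy. The study pooled the 3 doxorubicin libraries against DMSO, and the same comparison was made here. The libraries held between 23773061 and 36725345 counts on genes. The list of markers of the labelled cell type held 8 genes. In the 5 libraries, OTX2 lay between 23.5 and 29.4 CPM and MITF between 29.1 and 56.7 CPM. The visual cycle genes RPE65 and RLBP1 did not exceed 0.305 and 0.116 CPM. The other markers were also low, with DMSO means of 0.770 CPM for BEST1, 0.0196 for TYR, 0.231 for PMEL and 0.778 for SERPINF1. In doxorubicin the highest mean among these other markers was 2.83 CPM, for BEST1. CPM is the read count scaled to the size of its library after TMM normalization, which makes libraries comparable.

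APOBEC3 enzymes convert cytosine to uracil in single-stranded DNA. They restrict retroviruses and retrotransposons by mutating their DNA, and APOBEC3A and APOBEC3B are known as sources of C-to-T mutations in tumour genomes. Uracil in DNA is removed by the glycosylase UNG and repaired further by base excision. The transcription of APOBEC3B is known to be held down by the DREAM complex in resting cells and to be raised by NF-kB, whereas APOBEC3A and APOBEC3G are known to respond to interferon. The comparison asked how the mRNA levels of these genes differed between treated and untreated cells.

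The 7 genes lie side by side on chromosome 22 of GRCh38, from 38957609 to 39104067, in the order APOBEC3A, APOBEC3B, APOBEC3C, APOBEC3D, APOBEC3F, APOBEC3G and APOBEC3H. Each enzyme holds its catalytic zinc with a histidine and a pair of cysteines and uses a glutamate for catalysis. The reference coding sequences (GENCODE 44, MANE Select transcripts) encode 1 such site in APOBEC3A, APOBEC3C and APOBEC3H and 2 in APOBEC3B, APOBEC3D, APOBEC3F and APOBEC3G. The segment of the last or only site is given 5′ to 3′ for the 4 members with the most counts and for APOBEC3A, since these segments show how close the members are and so how easily their reads could be assigned to the wrong gene. The capitals mark the codons of the histidine, the glutamate and the cysteines.
APOBEC3A, coding bases 208 to 318, exon 3: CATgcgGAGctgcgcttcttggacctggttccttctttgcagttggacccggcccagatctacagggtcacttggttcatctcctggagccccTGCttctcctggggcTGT
APOBEC3B, coding bases 757 to 867, exon 6: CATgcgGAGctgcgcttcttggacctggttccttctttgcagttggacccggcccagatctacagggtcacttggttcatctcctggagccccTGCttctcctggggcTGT
APOBEC3C, coding bases 196 to 300, exon 3: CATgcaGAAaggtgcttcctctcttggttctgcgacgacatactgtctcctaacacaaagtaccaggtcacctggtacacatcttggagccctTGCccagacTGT
APOBEC3D, coding bases 784 to 888, exon 6: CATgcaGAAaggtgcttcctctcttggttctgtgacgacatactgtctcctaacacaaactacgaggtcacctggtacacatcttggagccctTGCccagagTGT
APOBEC3F, coding bases 745 to 849, exon 6: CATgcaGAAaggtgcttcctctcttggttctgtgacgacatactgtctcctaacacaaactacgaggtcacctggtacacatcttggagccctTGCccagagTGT

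The segments of APOBEC3A and APOBEC3B were identical in all 111 bases, and those of APOBEC3D and APOBEC3F in all 105 bases. APOBEC3C differed from APOBEC3D and from APOBEC3F at 4 of 105 bases each. Over whole transcripts, 26.8% of the 75-base windows of APOBEC3B, the length of 1 sequenced end, also occurred in a transcript of another APOBEC3 gene, as did 18.5% of those of APOBEC3A, 11.6% of APOBEC3D, 9.66% of APOBEC3G and 7.98% of APOBEC3F. Over all GENCODE genes the share of APOBEC3D was 85.7%, most of it from a read-through gene that overlaps APOBEC3D itself and has no row in the count table. For APOBEC3C the share with other members was 0.272%, and for APOBEC3H it was 0%. The sources used here do not say how reads mapping to several places were counted, so the counts of APOBEC3B, APOBEC3A and APOBEC3D are less certain than those of APOBEC3C.

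APOBEC3C mRNA was higher in all 3 doxorubicin libraries than in either DMSO library, as were 24.3% of all genes tested. APOBEC3B and APOBEC3D mRNA were lower in all 3, as were 23.4% of all genes tested. APOBEC3F was also higher in all 3 but differed little. It had 4.24 CPM in its lowest doxorubicin library and 4.23 CPM in its higher DMSO library. In the quasi-likelihood test of edgeR, adjusted over all genes by the Benjamini-Hochberg method, none of these differences passed an adjusted p of 0.01. The study applied this threshold to DESeq2, which was run here as an alternative. Of the 7 members, 4 had enough reads for the test, and 0 were called, where 4.02% of all 14187 genes tested were. At an unadjusted p under 0.05 there were 3 of the 4 members in edgeR, where 30.8% of all genes tested were. DESeq2 called 1 of the 4, APOBEC3C (adjusted p = 5.4e-05), where it called 14.6% of all genes tested, and limma voom called 0, where it called 3.71%. In bulk RNA, a change in the share of cells that express a gene cannot be told apart from a change in the level per cell.

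**Figure D1:**
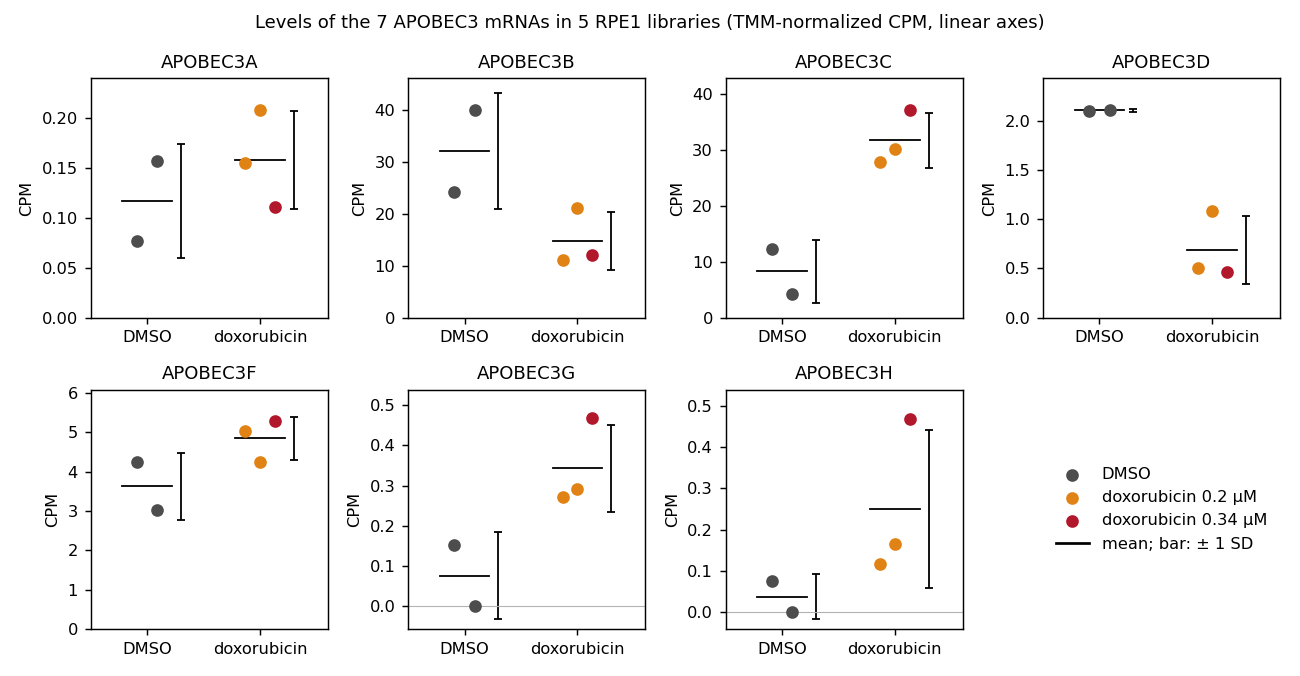
TMM-normalized CPM of each APOBEC3 gene (vertical axes, linear, each panel with its own range) in the 2 DMSO and 3 doxorubicin libraries, with 1 point per library, a line at the group mean and a bar of 1 SD on either side. The doxorubicin points of APOBEC3C lie above and those of APOBEC3B and APOBEC3D below all DMSO points, and APOBEC3A, APOBEC3G and APOBEC3H stay under 0.5 CPM.

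APOBEC3B (38982347 to 38992779), a nuclear deaminase with 2 zinc sites, had 636 and 1025 counts in the DMSO libraries. It had 289 and 511 counts at 0.2 μM and 436 at 0.34 μM. Its level was thus 24.3 and 40.1 CPM in DMSO, 11.2 and 21.2 CPM at 0.2 μM and 12.0 CPM at 0.34 μM. The groups did not overlap, as in 23.4% of all genes tested in this direction, but the lower DMSO library lay only a little above the higher 0.2 μM library. The mean was 32.2 ± 11.2 CPM (SD, n = 2) in DMSO and 14.8 ± 5.59 CPM (SD, n = 3) in doxorubicin. The log2 fold change was -1.12 (standard error 0.34, 95% interval -1.94 to -0.30, edgeR adjusted p = 0.0766). Without DMSO replicate 2 the log2 fold change was -0.74 (edgeR adjusted p = 0.260). With the block for the replicate number, which used the DMSO and 0.2 μM libraries alone, the edgeR adjusted p was 0.00954, and 4.82% of all genes were called lower. At its 3′ end lies the antisense gene APOBEC3B-AS1, which overlaps 1221 bases of the gene and had at most 5 counts in any library.

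APOBEC3C (39014257 to 39020352), a deaminase with 1 zinc site, had 322 and 109 counts in DMSO, 719 and 726 at 0.2 μM and 1350 at 0.34 μM. Its level was 12.3 and 4.27 CPM in DMSO, 27.8 and 30.2 CPM at 0.2 μM and 37.2 CPM at 0.34 μM. Every doxorubicin library was above every DMSO library, as in 24.3% of all genes tested in this direction, and the DMSO libraries stood far apart. Their log2 difference was 1.51, and 4.96% of all genes tested had a larger difference between the DMSO libraries. The mean was 8.28 ± 5.67 CPM (SD, n = 2) in DMSO and 31.7 ± 4.88 CPM (SD, n = 3) in doxorubicin. The log2 fold change of APOBEC3C was 1.94 (standard error 0.44, 95% interval 0.90 to 2.98, edgeR adjusted p = 0.0328) and missed the threshold. For the same groups, the adjusted p was 5.4e-05 in DESeq2, where 6.59% of all genes tested were called higher, and 0.0204 in limma voom. It also passed without the filter on low counts and with a block for the replicate number, where 1.95% and 4.18% of all genes were called higher. At an adjusted p of 0.05, where edgeR called 6.10% of all genes tested higher, APOBEC3C was the only member to pass. It did not pass 0.05 when any single doxorubicin library was left out. The edgeR adjusted p was then 0.0608 and 0.0723 without replicates 1 and 2 of 0.2 μM, and 0.0881 without the 0.34 μM library. The size rested on which DMSO library was used, since the log2 fold change was 2.89 without DMSO replicate 1 (edgeR adjusted p = 0.00973, with 0.220% of all genes called higher) and 1.35 without DMSO replicate 2 (edgeR adjusted p = 0.0360). Of the 4 members tested, APOBEC3C shared the fewest windows with the others.

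APOBEC3D (39021127 to 39033277), with 2 zinc sites, had 55 and 54 counts in DMSO, 13 and 26 at 0.2 μM and 17 at 0.34 μM. These were 2.10 and 2.12 CPM in DMSO, 0.503 and 1.08 CPM at 0.2 μM and 0.468 CPM at 0.34 μM. The DMSO libraries were alike and the doxorubicin libraries all lay lower, with replicate 2 of 0.2 μM the highest of them, as it also was for APOBEC3B. The log2 fold change was -1.63 (standard error 0.46, 95% interval -2.73 to -0.54, edgeR adjusted p = 0.0617). APOBEC3F (39040864 to 39055972), whose coding sequence was identical to that of APOBEC3D in 87.1% of aligned bases, had 111 and 77 counts under DMSO against 130, 102 and 192 under doxorubicin. Its lowest doxorubicin library, with 4.24 CPM, lay level with its higher DMSO library, with 4.23 CPM. The log2 fold change of APOBEC3F was 0.42 (standard error 0.28, 95% interval -0.24 to 1.09, edgeR adjusted p = 0.356). These paralogs thus had log2 fold changes of opposite sign, and the difference between them was not tested.

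The other 3 members had too few reads for the test. APOBEC3A, a strong mutator that is expressed mainly in myeloid cells and keratinocytes, had 2 and 4 counts under DMSO against 4, 5 and 4 under doxorubicin, and the groups overlapped in CPM. APOBEC3G, which is packaged into the particles of HIV, had 4 and 0 counts in DMSO, 7 and 7 at 0.2 μM and 17 at 0.34 μM. APOBEC3H, a member with 1 zinc site that is known to differ in stability between human haplotypes, had 2 and 0 counts in DMSO, 3 and 4 at 0.2 μM and 17 at 0.34 μM. Both were lowest in DMSO replicate 2 and highest at 0.34 μM. Over the pooled counts of each group, the ratio of doxorubicin to DMSO after normalization was 4.65 for APOBEC3G (95% exact interval 1.64 to 18.1), 7.20 for APOBEC3H (1.79 to 62.9) and 1.30 for APOBEC3A (0.461 to 4.17), and these intervals cover counting error only. In a fit of all genes with at least 1 count, the adjusted p from edgeR was 0.226 for APOBEC3G, 0.215 for APOBEC3H and 0.807 for APOBEC3A. Since APOBEC3G is abundant in lymphocytes, 10 immune cell markers were examined beside it. Of these, 3 had no count in any library (CD3D, CD3E and MS4A1), and the summed level of the 10 was 0.191 and 0.353 CPM in DMSO and between 1.31 and 2.62 CPM in doxorubicin, most of it from PTPRC. Their part in the result was not tested.

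Levels of different genes were compared as CPM per kilobase of exon. In DMSO, APOBEC3B was the highest at 20.3 ± 7.06 (SD, n = 2), followed by APOBEC3C at 3.13 ± 2.14, and these did not overlap. APOBEC3D at 0.838 and APOBEC3F at 0.806 followed and overlapped each other, and APOBEC3A, APOBEC3G and APOBEC3H were at or under 0.115 in both libraries. In doxorubicin, APOBEC3C had 12.0 ± 1.85 (SD, n = 3) and APOBEC3B 9.32 ± 3.51 (SD, n = 3), and their ranges overlapped. APOBEC3F then stood above APOBEC3D, with 1.08 ± 0.121 against 0.272 ± 0.137 (SD, n = 3 each). The ratio of APOBEC3B to APOBEC3C, per kilobase of exon, was 3.28 and 15.6 in DMSO and 0.668, 1.17 and 0.537 in doxorubicin. Every DMSO library thus lay above every doxorubicin library. This follows from the separate levels of both genes, neither of which overlapped between the groups, and is not a further result. Per kilobase of coding sequence, which leaves out the untranslated part (570 of 2644 exon bases of APOBEC3C are coding, and 1146 of 1590 of APOBEC3B), the ranges of APOBEC3B and APOBEC3C overlapped in DMSO and APOBEC3C was the higher in every doxorubicin library.

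Of the summed level of the 7 genes per kilobase of exon, APOBEC3B made up 69.6% and 88.6% in DMSO and 36.5%, 50.1% and 31.7% in doxorubicin. APOBEC3C made up 21.2% and 5.67% in DMSO and 54.6%, 42.8% and 59.1% in doxorubicin. The shares of APOBEC3B and APOBEC3C thus differed between the groups without overlap, with either length, as the levels of these genes did on their own. The share of APOBEC3F overlapped, with 4.30% and 2.35% in DMSO and 5.80%, 3.54% and 4.94% in doxorubicin per kilobase of exon. The sum of the family depended on the length used. Per kilobase of exon the sum was 21.9 and 28.5 CPM in DMSO and 19.3, 26.7 and 23.8 CPM in doxorubicin, which overlapped. Per kilobase of coding sequence it was 48.7 and 47.3 CPM in DMSO and 64.2, 77.1 and 82.3 CPM in doxorubicin, which did not.

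**Figure D2:**
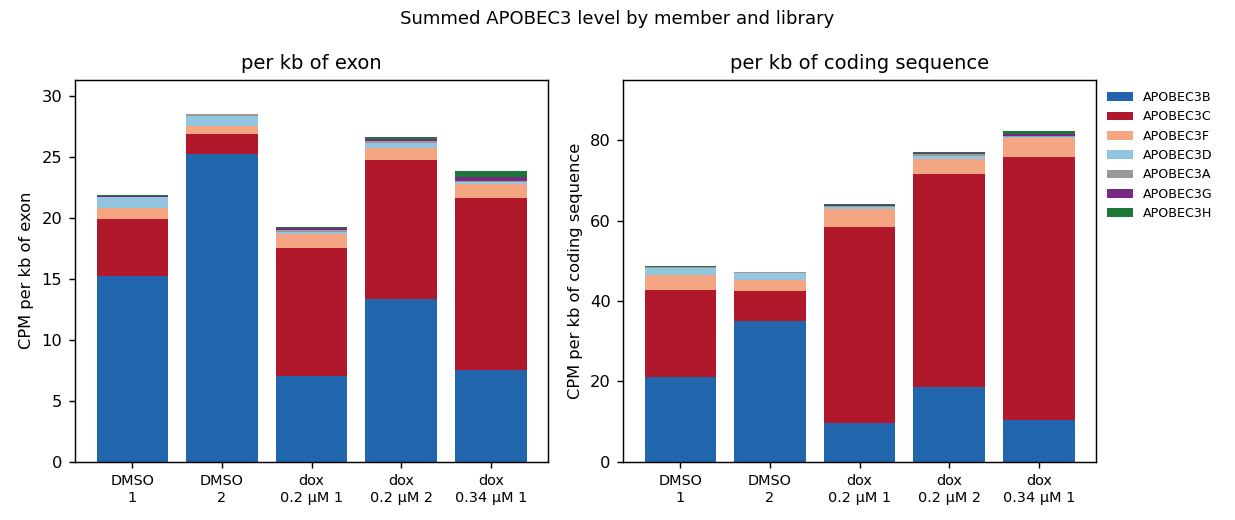
Summed level of the 7 APOBEC3 genes in each library as stacked bars, in CPM per kilobase of exon (left) and per kilobase of coding sequence (right), with colours for the members. APOBEC3B fills most of each DMSO bar on the left, and APOBEC3C takes a larger part of every doxorubicin bar on both sides.

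To compare the concentrations, a model with separate terms for 0.2 and 0.34 μM was fitted. Of the 6 members tested there, 0 passed the threshold and 0 had an unadjusted p under 0.05 in edgeR, where 0% and 0.183% of all 14745 genes tested did, and DESeq2 and limma voom also called 0. The log2 difference was -0.43 (95% interval -1.57 to 0.71) for APOBEC3B, 0.36 (-0.92 to 1.64) for APOBEC3C and -0.75 (-2.51 to 1.02) for APOBEC3D. These intervals include both no difference and differences of more than 1 on the log2 scale in 1 direction or in both. APOBEC3G and APOBEC3H passed the filter on low counts in this fit only through the 0.34 μM library, where both were highest. The log2 difference of APOBEC3H, 1.71 (-0.98 to 4.39), is thus no result on its own. The lone 0.34 μM library has no replicate, and its spread was taken from the other groups.

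**Figure D3:**
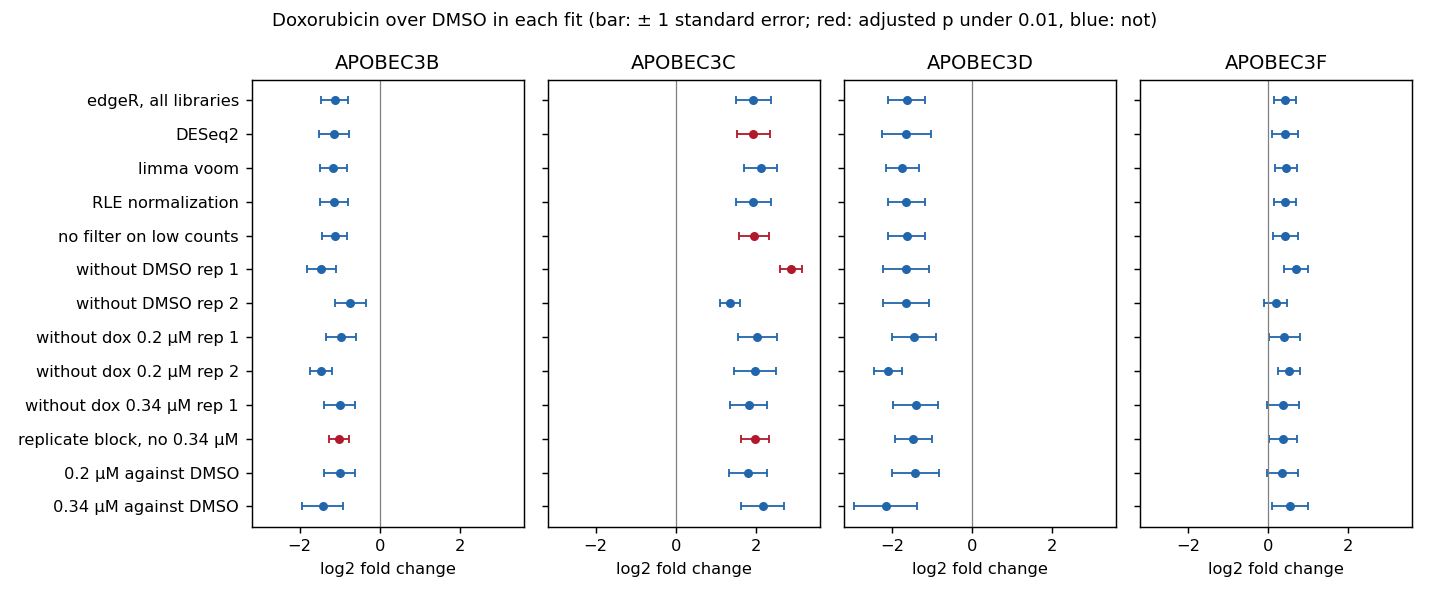
Log2 fold change of doxorubicin over DMSO (horizontal axes) for the 4 members tested, in edgeR with all libraries and in each alternative fit, with bars of 1 standard error. Red marks an adjusted p under 0.01 and blue any larger value, and each member keeps its sign in every fit, with APOBEC3C between 1.35 and 2.89.

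The genes whose profiles over the 5 libraries were most like those of the members were found by the distance between centred log2 CPM values. Nearest to APOBEC3B were C1QTNF2 (distance 0.12), SLC7A11 (0.14), SNHG4 (0.23), SHISA2 (0.25) and KIAA1211 (0.27). SLC7A11, the cystine transporter, had 66.2 and 119 CPM in DMSO and 33.6, 61.3 and 37.4 CPM in doxorubicin, so that its DMSO replicate 2 was the highest library and replicate 2 of 0.2 μM the highest of the treated ones, as for APOBEC3B. Nearest to APOBEC3C were MATN1-AS1 (0.17), C2orf88 (0.22), SMAD5-AS1 (0.26), LYRM9 (0.26) and RGS5 (0.30). Among the nearest to APOBEC3D were ARMC4 (0.21), ZNF107 (0.34), PTTG1 (0.34) and KIAA0586 (0.37). PTTG1, the securin, is known as a gene of proliferating cells. Nearest to APOBEC3F were CDH13 (0.068), PDIA5 (0.075), APOL2 (0.077), TMEM127 (0.079) and PAM (0.083). With 5 libraries, such a likeness describes these samples only.

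Among the 10 lists of genes around the family, those of the cell cycle and of p53 held all calls of edgeR at an adjusted p of 0.01, and DESeq2 also called genes of other lists. Of 12 DREAM, E2F and MYB regulators, 10 had lower and 2 higher levels, with a median log2 fold change of -1.18, against 0.013 over all genes tested. In edgeR 6 of them were called lower and 0 higher, where 2.73% of all genes tested were called lower. MYBL2, the activating MYB factor that joins the core of the DREAM complex in cycling cells, had 110 and 80.4 CPM in DMSO and 17.4, 8.27 and 10.2 CPM in doxorubicin and fell by 2.99 on the log2 scale (edgeR adjusted p = 0.0032). FOXM1, RBL1, LIN54, LIN9 and E2F1 also fell, with log2 fold changes of -2.55, -2.24, -1.43, -2.27 and -2.62. E2F4, RBL2, LIN37, LIN52, RBBP4 and TFDP1, the rest of this list, did not pass the test in edgeR. Their log2 fold changes were -0.03, 0.10, 0.29, -0.94, -0.47 and -0.64. All 10 mitotic genes fell, with a median of -4.17. The 6 with the smallest p-values were PLK1, CCNA2, BUB1, MKI67, CDC20 and CENPA, with log2 fold changes of -5.53, -3.95, -4.47, -4.65, -4.39 and -4.92. All 10 p53 targets had higher levels, with a median of 2.08. In edgeR 7 of them were called higher, where 1.29% of all genes tested were. CDKN1A, the inhibitor through which p53 is known to act on the DREAM complex, rose by 3.39 on the log2 scale, from 276 ± 26.1 CPM (SD, n = 2) in DMSO to 2900 ± 500.4 CPM (SD, n = 3), and MDM2, BBC3, SESN1, SESN2, XPC and RRM2B also rose. The counts of called genes depended on single libraries, and so did those over all genes. Without the 0.34 μM library, 5 list genes were called higher and 10 lower, in place of 7 and 16 over the 10 lists. In that fit 0.274% of all genes tested were called higher and 1.01% lower, in place of 1.29% and 2.73%.

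**Figure D4:**
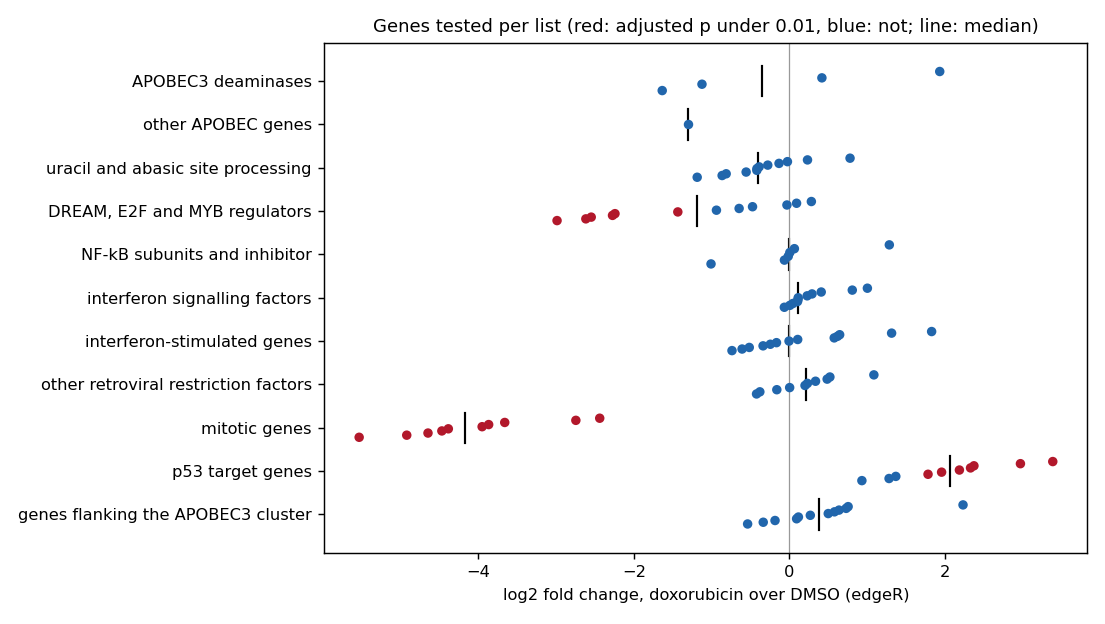
Log2 fold change of doxorubicin over DMSO from edgeR (horizontal axis) for each gene tested of the APOBEC3 family and of 10 lists, with 1 point per gene and a line at the median of the list. Points past an adjusted p of 0.01 are red, and they are found in the lists of DREAM, E2F and MYB regulators, mitotic genes and p53 targets, while the 4 APOBEC3 points lie between -1.63 and 1.94.

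Of the enzymes that act on uracil and abasic sites, 12 of 12 were tested and 0 passed the threshold, with 7 at an unadjusted p under 0.05 in edgeR, against 30.8% of all genes tested, and a median of -0.40. DESeq2 called 1 higher (SMUG1) and 2 lower (MBD4 and XRCC1), where it called 6.59% of all genes tested higher and 8.02% lower. UNG, the main uracil glycosylase, had 20.6 and 38.0 CPM in DMSO and 16.3, 14.6 and 17.4 CPM in doxorubicin. Its groups did not overlap, as in 23.4% of all genes tested in this direction, and its log2 fold change was -0.86 (edgeR adjusted p = 0.0810). SMUG1, a second glycosylase for uracil, had a log2 fold change of 0.78, and MBD4, which acts on mismatches at methylated CpG sites, had one of -1.18. Of 6 NF-kB genes, 0 passed the threshold in edgeR or DESeq2, with 2 at an unadjusted p under 0.05 in edgeR, a share near the 30.8% of all genes tested, and a median of -0.0018. These 2 genes went in opposite directions. RELB, a subunit of the non-canonical pathway, had 2.37 and 1.21 CPM in DMSO and between 3.24 and 5.01 CPM in doxorubicin. This gave 1.29 on the log2 scale (edgeR adjusted p = 0.0787). REL had a log2 fold change of -1.01 (edgeR adjusted p = 0.0707).

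Of 11 interferon signalling factors, 0 passed the threshold in edgeR and 2 were called higher in DESeq2, STAT2 among them, where DESeq2 called 6.59% of all genes tested higher. In edgeR 2 of the 11 had an unadjusted p under 0.05, against 30.8% of all genes tested, and the median was 0.12. STAT2, a transcription factor that acts downstream of type I interferon, had 103 and 90.1 CPM in DMSO and 170, 217 and 194 CPM in doxorubicin, which gave 1.01 on the log2 scale (edgeR adjusted p = 0.0127). Of 16 interferon-stimulated genes, 13 were tested, and 6 of them had higher and 7 lower levels with a median of -0.0017. In edgeR 0 of them passed, with 5 of the 13 at an unadjusted p under 0.05 against 30.8% of all genes tested, and DESeq2 called 2 higher (ISG15 and IFI6) against 6.59%. Of 13 other restriction factors of retroviruses, 10 were tested and 0 passed in edgeR or DESeq2, with 2 of the 10 at an unadjusted p under 0.05 in edgeR, against 30.8% of all genes tested, and a median of 0.22. SAMHD1, which depletes nucleotides and so limits reverse transcription, had a log2 fold change of -0.38 (edgeR adjusted p = 0.206).

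The genes on either side of the cluster did not pass the threshold either. Of 12 flanking genes tested, 0 were called in edgeR or DESeq2, with 4 at an unadjusted p under 0.05 in edgeR, a share near the 30.8% of all genes tested, and a median log2 fold change of 0.39. PDGFB, a growth factor gene and the gene with the largest value of the 12, had 5.99 and 0.627 CPM in DMSO and 20.4, 2.95 and 23.4 CPM in doxorubicin, so the groups overlapped (log2 fold change 2.24, standard error 1.09, edgeR adjusted p = 0.221). CBX6, before the cluster, had a log2 fold change of 0.27 and CBX7, behind it, one of 0.64, both subunits of Polycomb complexes, and in both the groups overlapped. Within the cluster, the neighbours APOBEC3B and APOBEC3C had log2 fold changes of -1.12 and 1.94. Of the other APOBEC genes, APOBEC1 had 0 counts in every library, where a count of 0 has a 95% upper limit of about 3 counts. APOBEC4 had at most 4 counts, and APOBEC2 had 15 and 11 counts under DMSO against 8, 4 and 5 under doxorubicin (log2 fold change -1.30, edgeR adjusted p = 0.170). APOBEC2 passed the filter on low counts only through the DMSO libraries, where it was higher, so its fold change is no result on its own.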

How the data were processed

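Per the labels and the study's methods, the authors mapped 75-base paired-end reads of poly-A RNA from a stranded kit with STAR (hg38) and assigned them to iGenomes genes with Rsubread. The deposited values are these unnormalized counts, with replicates apart. Versions, strand setting and treatment of multi-mapping reads were not found in the sources. The treatment protocol gives higher doses than the sample labels, which were used. The authors' own fold changes and p-values were not used.

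The members and lists were chosen with earlier results of these data known. The main test was edgeR 4.0.16 in R 4.3.3 (quasi-likelihood, TMM, minimum count 10 and minimum total 15, leaving 14187 genes), with DESeq2 1.42.0 and limma 3.58.1 (voom) on those genes and a threshold of adjusted p of 0.01. Each standard error from edgeR is the size of the log2 fold change over the root of its F statistic. Those of DESeq2 and limma voom came from these tools. The prior count for log2 CPM was 2. The fits were tested on simulated data. Chi-square values per degree of freedom of 117 (DMSO) and 75.3 (0.2 μM) between replicates, which the study calls biological, show separate libraries.

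Genes named are the members, list genes past the threshold (up to 6 a list by p), UNG, CDKN1A, MYBL2, RELB and SAMHD1, and the 5 nearest profiles of each member tested, apart from a few genes that are not reported here. SMUG1, MBD4, E2F4, RBL2, CBX6, CBX7, PDGFB, PTPRC, RRM2B, XRCC1, STAT2, ISG15, IFI6, APOBEC1, APOBEC2 and APOBEC4 were chosen after their values were seen. So were REL, LIN37, LIN52, RBBP4 and TFDP1. Positions are from RefSeq on GRCh38. Transcript lengths and coding sequences are from GENCODE 44 lifted to GRCh37, and the counting annotation may use other transcript ends. Alternatives were the tool, normalization, filter, threshold, doses, each library left out, a replicate block and the length.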

Additional observations from a re-analysis of the deposited data

How the results depend on the processing

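The direction of the 4 members tested held in all 12 alternative fits, with log2 fold changes between -1.47 and -0.74 for APOBEC3B, 1.35 and 2.89 for APOBEC3C, -2.16 and -1.41 for APOBEC3D and 0.18 and 0.68 for APOBEC3F. The groups did not overlap for any of these members, so fits to the same libraries could hardly change the direction. The count of members past the threshold did not hold. In place of 0 higher members, 1 (APOBEC3C) passed with DESeq2, without the filter on low counts, at an adjusted p of 0.05 and with a replicate block, and leaving out single libraries gave between 0 and 1. In place of 0 lower members, 1 (APOBEC3B) passed with the replicate block. The block used the DMSO and 0.2 μM libraries alone, since only these share replicate numbers, and gave adjusted p-values of 0.00954 for APOBEC3B and 0.000285 for APOBEC3C. It called 8.99% of all genes tested. The labels do not say what a number marks, and the differences between replicates 1 and 2 in DMSO and at 0.2 μM correlated with r = 0.53 across genes. Over all genes tested, 571 were called, against 2073 with DESeq2, 1020 without the filter, 1249 with the block, 1927 at an adjusted p of 0.05, 185 at 0.2 μM and 98 at 0.34 μM against DMSO, and between 49 and 215 without single libraries. Over the 10 lists, 7 genes rose and 16 fell past the threshold, and the rises and falls that follow also count only genes called. With DESeq2, with the block and at an adjusted p of 0.05, 15 rose, and without the filter 12 did. At 0.34 μM against DMSO 3 rose and 8 fell, and at 0.2 μM against DMSO 10 fell. Leaving out single libraries, between 0 and 7 rose and between 7 and 12 fell. The comparison of the concentrations gave 0 members in each of its fits. By level, APOBEC3D was 4 and APOBEC3F 3 in the order of DMSO with the coding length or no length, in place of 3 and 4. With the coding length APOBEC3G was 7 and APOBEC3H 6 in DMSO, and with no length APOBEC3G was 5 and APOBEC3H 6 in doxorubicin. The cause of these shifts was not tested. With 2 control libraries, whose APOBEC3C levels differed widely, the size of single folds is uncertain, and APOBEC3A, APOBEC3G and APOBEC3H lie near the limit of detection at this depth.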

Other observations

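A pair of further rows in the count table belongs to the APOBEC3 cluster and to none of the 7 members. APOBEC3A_B, the product of a known deletion that joins APOBEC3A to the end of APOBEC3B, had 2 and 9 counts under DMSO against 5, 3 and 5 under doxorubicin, with overlapping groups. Such a transcript would share sequence with those of APOBEC3A and APOBEC3B. How much was not measured, and the shares of windows between members do not include it. APOBEC3B-AS1, on the opposite strand at the end of APOBEC3B, had 5 and 5 counts under DMSO against 1, 1 and 0 under doxorubicin. Without the strand setting of the counting, reads in the 1221 bases where it overlaps APOBEC3B cannot be told apart from those of APOBEC3B.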
